A study of Gallus gallus with 6 samples.

Results

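Transcripts of glycolysis, of lactate production and export, and of glycogen synthesis and breakdown were followed in whole chick hearts. The members were 47 gene symbols chosen by name, of which 30 were listed among the 6919 deposited transcripts (6542 symbols), in 31 rows. Of these genes 29 had a mean of at least 1 RPKM (reads per kilobase of transcript and per 1000000 reads) and were tested. PFKL, ALDOA, ENO3, PKM2, PFKFB1, PFKFB2, PFKFB3, PYGM, GYS1, GYS2, GBE1, PHKA1, PHKG2, PPP1R3B, PPP1R3C, GAA and GSK3B have no row under these names and were not analysed here. The glycogen synthases and the muscle-type phosphorylase are thus among the 17 genes for which no value is given.

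The hearts came from chick embryos harvested at Hamburger-Hamilton stage (HH) 29. In 3 embryos a nylon suture tied at HH21 and left in place narrowed the outflow tract, or OFT (OFT-banded hearts 6, 11 and 17). In 3 sham embryos the suture was passed through and withdrawn at once (sham hearts 38, 48 and 42). Each library was made from 1 whole heart after depletion of globin transcripts, so the RNA of all chambers, of the OFT and of the blood inside was measured together. In such bulk RNA, fewer cells of a type and less RNA per cell cannot be told apart. The comparison asks whether the transcripts that handle glucose and glycogen differed after the pressure load on the heart had been raised.

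Glycolysis splits glucose into pyruvate in the cytosol and yields ATP without oxygen. Lactate dehydrogenase interconverts pyruvate and lactate, with A subunits known for the direction to lactate and B subunits, typical of heart muscle, for the direction to pyruvate. Glycogen is a store of glucose that the embryonic heart is known to hold in large amounts, and phosphorylase releases glucose 1-phosphate from it. Several steps are catalysed by isoforms from separate genes, which were compared within each heart because RPKM is scaled by transcript length. The paper states that the sequenced RNA was partly degraded, and scaling by length does not correct for uneven loss along transcripts.

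Low values of microRNA rows fell on whole steps that correspond to depths between 21.2 times 1000000 reads (sham heart 42) and 41.2 times 1000000 reads (OFT-banded heart 11). A value of 1 RPKM over 1 kilobase then stands for about 21.2 to 41.2 reads, or read pairs, which the steps cannot tell apart. Heart 6 and heart 42 stood at the ends of the first principal component, at -23.53 and 18.74, with 54.7% of the variance. Of 19 cardiomyocyte markers looked up 13 had a row and all were tested, led by MYL2. Among 4 skeletal muscle factors looked up, MYF5 was at 0 in all hearts. MYOD1 did not exceed 0.66 RPKM, MYOG 0.68 RPKM and MYF6 1.13 RPKM. The summed level of the cardiomyocyte markers was 71500 to 77660 RPKM in OFT-banded hearts, against 51300 to 66160 RPKM in sham hearts. Taken singly, 0 of these 13 markers parted the groups, beside 16.3% of all tested transcripts. A lower mean in OFT-banded hearts was seen in 4, beside 63.2% of all tested transcripts lower by log2 fold change. The sum is thus weighted to the most abundant rows. All 10 tested erythroid markers had a lower mean in OFT-banded hearts, beside the same 63.2% of all tested transcripts. The 14 erythroid rows summed to 6278 to 12380 RPKM in OFT-banded hearts, against 16530 to 42130 RPKM in sham hearts. Of these rows 3 parted the groups (HBE, HBG1 and H1F0), where 16.3% of all tested transcripts did. The erythroid sum is weighted to HBE, at 15330 RPKM on average. HBG1, HBG2, HBAA, HBAD and HBZ were among the targets of the depletion, so their values are what it left. HBZ was at 0 throughout. The part of erythroid cells in the results was not tested beyond a fit with the level of erythroid markers as a covariate. That level is itself tied to the group.

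As a share of all RPKM of a heart, the 31 rows together held 3.62%, 3.87% and 3.46% in OFT-banded hearts 6, 11 and 17, against 3.50%, 3.57% and 3.60% in sham hearts 38, 48 and 42. GAPDH alone, the dehydrogenase that opens the pay-off phase of glycolysis, made up 1.71% to 1.82% in OFT-banded hearts, against 1.78% to 1.81% in sham hearts. Its rank was 3 or 4 among all 4726 tested transcripts in every heart. The share of summed RPKM held by the listed members thus overlapped between the groups.

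Levels per length differed widely between steps, and the same 10 genes stood highest in all 6 hearts. After GAPDH (mean over 6 hearts 13110 RPKM) came ENO1, enolase, at 3053 RPKM and LDHB at 2468 RPKM. PGAM1, phosphoglycerate mutase, followed at 1667 RPKM, ALDOC, an aldolase, at 1524 RPKM, TPI1, triose phosphate isomerase, at 993 RPKM and PKM, pyruvate kinase, at 820 RPKM. GPI, glucose phosphate isomerase, had 557.5 RPKM, PGK1, phosphoglycerate kinase, 537 RPKM and LDHA 497 RPKM. Among these 10 genes, neighbours that changed places between hearts were ENO1 with LDHB, PGAM1 with ALDOC, and GPI, PGK1 and LDHA among themselves. Lower ranks moved more, as for PYGB between rank 11 and 17 of the members and SLC16A3 between 22 and 27. The enzymes that commit glucose to the pathway were lower by level, with HK1 at 140 RPKM and PFKP at 125 RPKM, as were all glycogen enzymes, led by PYGB at 152 RPKM. PFKFB4, which sets the level of an activator of phosphofructokinase, was the lowest tested member, at 2.01 RPKM. By RefSeq accession the rows named PKM, PGK1 and SLC2A3 carry the symbols PKLR, PGK2 and SLC2A14 in the GRCg7b annotation, and the deposited names are kept here.

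**Figure D1:**
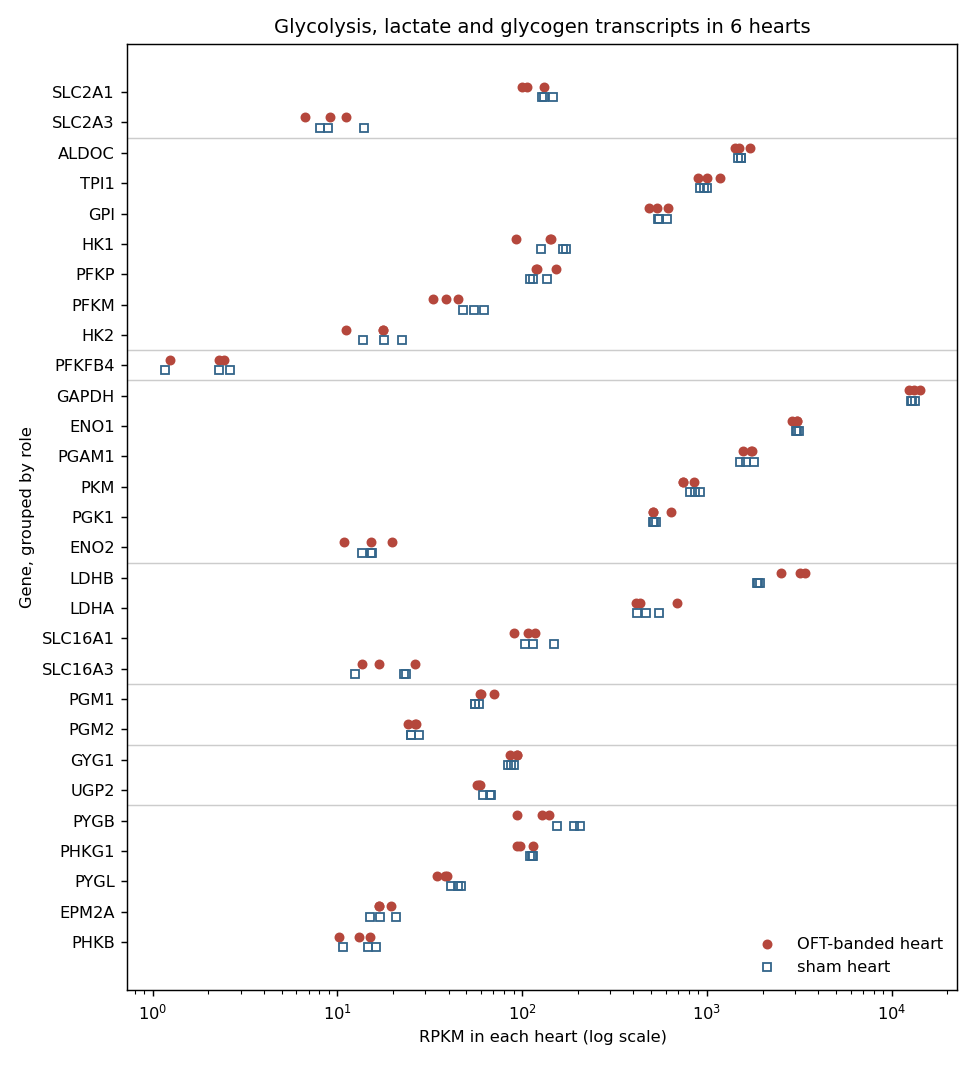
RPKM on a log axis of the 29 tested genes of glycolysis, lactate and glycogen, grouped by role, in OFT-banded hearts (filled circles, upper row of each gene) and sham hearts (open squares, lower row), 1 point per heart. Levels run from PFKFB4, at 2.01 RPKM on average, to GAPDH, at 13110 RPKM, and the OFT-banded points of LDHB lie to the right of its sham points.

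None of the 29 genes passed the test between OFT-banded and sham hearts at an adjusted p under 0.05 (limma with Benjamini-Hochberg adjustment over all 4726 transcripts), where 0.0% of all transcripts did. At an unadjusted p under 0.05 from limma there were 4 genes, higher for LDHB and lower for PFKM, PYGB and PYGL, against 8.57% of all tested transcripts (3.28% higher and 5.29% lower). In 6 of the 29 genes (20.7%) the OFT-banded hearts did not overlap with the sham hearts, 2 higher and 4 lower, where 16.3% of all tested transcripts did not overlap (5.23% higher and 11.0% lower). The members' share is close to this background. Without OFT-banded heart 11, 10 members (34.5%) did not overlap, beside 25.6% of all transcripts. There were 8 (27.6%) without heart 6, beside 26.1%, and 7 (24.1%) without heart 17, beside 25.8%. The share of all transcripts was thus also higher with 2 hearts against 3. With the erythroid covariate 2 members (6.9%), LDHB and PYGL, had an unadjusted p under 0.05 from limma, beside 5.88% of all transcripts. By value 12 genes were higher and 17 lower, beside 36.8% of all transcripts higher and 63.2% lower, and the median log2 fold change was -0.03, against -0.07 over all transcripts. These directions depend on the scaling. With median-ratio scaling of the hearts 17 members were higher and 12 lower, and with globin rows left out 6 and 23. Among all transcripts with an unadjusted p under 0.05 from limma, 38.3% were higher, against 56.8% with median-ratio scaling and 22.2% with globin rows left out. LDHB was higher and PFKM, PYGB, PYGL and UGP2 were lower by value under each of these scalings.

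**Figure D2:**
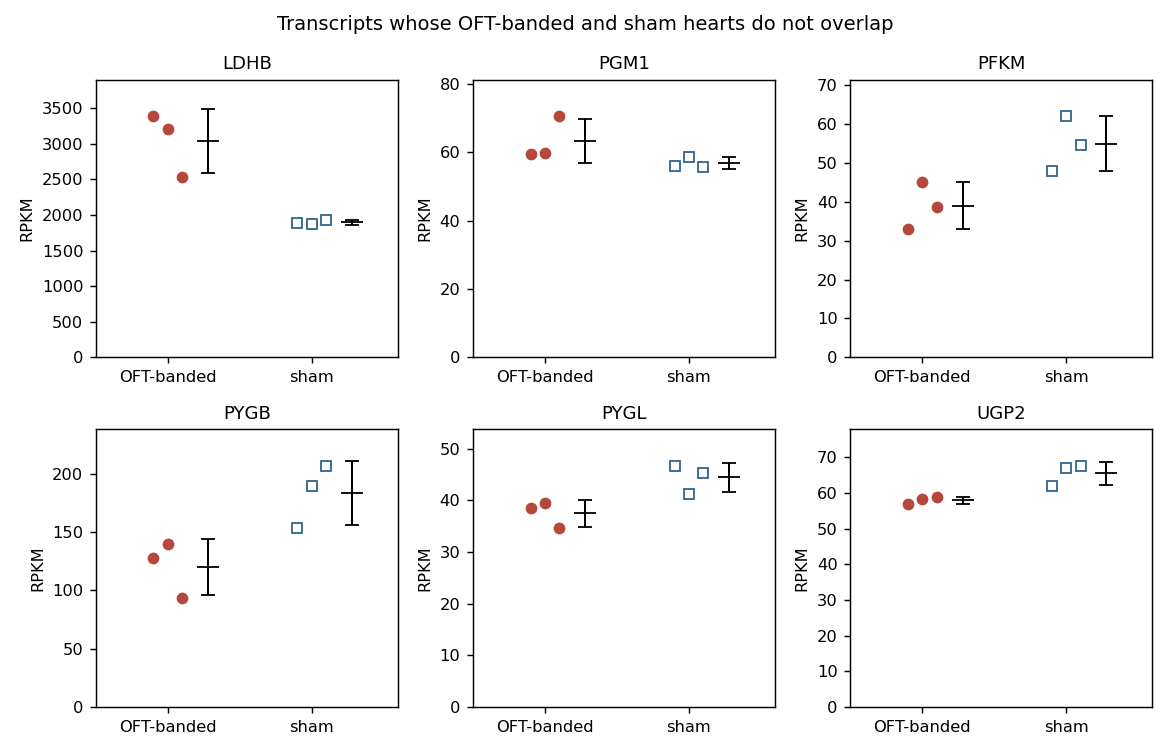
RPKM from 0 of the 6 genes whose groups did not overlap, with 1 point per heart (OFT-banded left, sham right) and the mean ± SD (n = 3) beside each group. LDHB and PGM1 lay higher in the OFT-banded group and PFKM, PYGB, PYGL and UGP2 lower, and LDHB averaged 3041 RPKM in OFT-banded against 1896 RPKM in sham hearts.

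LDHB encodes the B subunit of lactate dehydrogenase, and its level was 3392, 3203 and 2528 RPKM in OFT-banded hearts 6, 11 and 17, against 1883, 1873 and 1930 RPKM in sham hearts 38, 48 and 42. The OFT-banded hearts averaged 3041 ± 454 RPKM and the sham hearts 1896 ± 30.4 RPKM (SD, n = 3 each), so that all OFT-banded hearts were higher and more spread. The log2 fold change was 0.67 (95% interval 0.37 to 0.97, adjusted p = 0.543 and unadjusted p = 0.00106 from limma), higher in 3 of 3 hearts, and by p it had rank 7 of the 4726 tested transcripts. It was 0.59 without heart 6, 0.80 without heart 17 and 0.55 with the erythroid covariate. The adjusted p here is from limma on RPKM. With DESeq the paper lists LDHB as higher in these hearts at a corrected p under 0.05. It also reports LDHB as higher by qPCR on these hearts, and as no longer different at a later stage. The study selected LDHB on these same hearts, so its difference is not independent evidence. PFKM and LDHA are also among the genes of interest that the study lists from these hearts, and the same limit holds for them.

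LDHA, the muscle-type subunit, was at 414, 691 and 437 RPKM in OFT-banded hearts 6, 11 and 17, against 470, 421 and 547 RPKM in sham hearts 38, 48 and 42. The groups overlapped, with heart 11 highest of all (log2 fold change 0.07, 95% interval -0.41 to 0.55, adjusted p = 0.895 from limma). Without heart 11 it was -0.17, and without sham heart 48 it was -0.02. LDHB made up 89.1%, 82.25% and 85.3% of the LDHA and LDHB level in OFT-banded hearts, against 80.04%, 81.6% and 77.9% in sham hearts. The LDHB to LDHA ratio was thus 8.201, 4.63 and 5.79 in OFT-banded hearts, against 4.01, 4.45 and 3.53 in sham hearts. Heart 6 had the highest ratio and heart 11 came close to sham heart 48, so that the groups were parted by a narrow margin. The mean log2 ratio differed by 0.60 (two-sided p = 0.1 by an exact permutation test, the lowest that 3 hearts against 3 allow, and 0.30 adjusted over 9 isoform pairs), and by 0.38 without heart 6. The sum of both subunits was 3806, 3894 and 2964 RPKM in OFT-banded hearts against 2353, 2295 and 2478 RPKM in sham hearts. LDHB made up most of this sum, so its lack of overlap repeats that of LDHB.

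Lactate leaves and enters cells through monocarboxylate transporters. SLC16A1 (MCT1) was at 90.2, 117 and 107 RPKM in OFT-banded hearts, against 103, 115 and 149 RPKM in sham hearts. SLC16A3 (MCT4) was at 16.7, 26.2 and 13.6 RPKM in OFT-banded hearts, against 12.5, 23.6 and 23.1 RPKM in sham hearts. Both overlapped between the groups, and SLC16A1 was 4.46 to 7.87 times as high as SLC16A3 in OFT-banded hearts, against 4.85 to 8.27 times in sham hearts (difference in mean log2 ratio -0.15, exact permutation test, p = 0.7). BSG, basigin, a chaperone of these transporters, had 2 rows, of which 1 was listed at 0 in all hearts and the other lay between 0.22 and 1.38 RPKM, so it was not tested. How reads common to both rows were counted is not stated, so the level of BSG in these hearts stays uncertain.

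Phosphofructokinase catalyses the committed step of glycolysis, and 2 of its genes were measured. PFKM, the muscle-type gene, was at 33.1, 45.2 and 38.7 RPKM in OFT-banded hearts 6, 11 and 17, against 48.0, 62.1 and 54.6 RPKM in sham hearts 38, 48 and 42. All OFT-banded hearts were below all sham hearts, by a small margin between heart 11 and heart 38. The log2 fold change was -0.49 (95% interval -0.83 to -0.15, adjusted p = 0.543 and unadjusted p = 0.0114 from limma), with a range of -0.60 to -0.38 when single hearts were left out and -0.34 with the erythroid covariate. PFKP, the platelet-type gene and the more abundant one, was at 119, 152 and 120 RPKM in OFT-banded hearts, against 115, 136 and 110 RPKM in sham hearts, with overlap.

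The PFKP to PFKM ratio was 3.59, 3.36 and 3.10 in OFT-banded hearts, against 2.39, 2.18 and 2.02 in sham hearts. Every OFT-banded heart was thus above every sham heart, with a gap wider than the range within either group. The mean log2 ratio differed by 0.61 (p = 0.1 by the same exact permutation test, and 0.30 adjusted over 9 pairs), and by 0.55 to 0.67 when any 1 heart was left out. The sum of both genes did not part the groups, at 152, 197 and 158 RPKM in OFT-banded hearts against 163, 198 and 165 RPKM in sham hearts. PFKFB4 was at 1.25 to 2.43 RPKM in OFT-banded hearts, against 1.17 to 2.61 RPKM in sham hearts.

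Glucose enters through SLC2A1 (GLUT1) and SLC2A3 (GLUT3). SLC2A1 was at 99.99, 132 and 106 RPKM in OFT-banded hearts, against 131, 127 and 146 RPKM in sham hearts, and only heart 11 reached into the sham range (log2 fold change -0.27, 95% interval -0.55 to 0.02, adjusted p = 0.543 from limma). SLC2A3 was at 6.72, 11.1 and 9.10 RPKM in OFT-banded hearts, against 8.04, 8.92 and 14.0 RPKM in sham hearts. SLC2A1 exceeded SLC2A3 at least 10.5-fold in each heart, and the ratio overlapped between the groups (exact permutation test, p = 0.9).

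Hexokinases trap glucose as its phosphate. HK1 was at 92.7, 143 and 142 RPKM in OFT-banded hearts 6, 11 and 17, against 126, 172 and 166 RPKM in sham hearts 38, 48 and 42. HK2 was at 11.1, 17.6 and 17.7 RPKM in OFT-banded hearts, against 13.7, 17.8 and 22.3 RPKM in sham hearts. In both genes the lowest heart was heart 6 and the groups overlapped. The log2 fold change of HK1 was -0.31 (95% interval -0.77 to 0.15, adjusted p = 0.593 from limma), -0.10 without heart 6 and 0.051 with the erythroid covariate. That of HK2 was -0.21, and 0.27 with the covariate. HK1 was 8.002 to 8.332 times as high as HK2 in OFT-banded hearts, against 7.44 to 9.64 times in sham hearts (exact permutation test, p = 0.4).

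The abundant enzymes of the shared trunk differed little. ENO1 was at 3090, 3083 and 2894 RPKM in OFT-banded hearts, against 3046, 3058 and 3148 RPKM in sham hearts, and its coefficient of variation over 6 hearts was 2.80%, beside a median of 12.04% over the tested members and 13.6% over all tested transcripts. The 95% interval of its log2 fold change was -0.24 to 0.18 (limma). GAPDH was at 14188, 13138 and 12395 RPKM in OFT-banded hearts, against 13347, 12907 and 12701 RPKM in sham hearts (log2 fold change 0.03, 95% interval -0.27 to 0.32, limma). The direction of both genes turned under other scalings. PGAM1 was at 1752, 1740 and 1576 RPKM in OFT-banded hearts, against 1789, 1507 and 1637 RPKM in sham hearts. In all 3 genes the OFT-banded and sham hearts were interleaved.

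TPI1, PGK1, GPI and PKM also overlapped between the groups. Their log2 fold changes lay between -0.15, for PKM, and 0.09, for TPI1. ALDOC was at 1483, 1714 and 1417 RPKM in OFT-banded hearts, against 1529, 1536 and 1466 RPKM in sham hearts. ENO2, the neuron-type enolase, was at 10.9, 19.7 and 15.1 RPKM in OFT-banded hearts, against 13.6, 15.5 and 15.3 RPKM in sham hearts. ENO1 was at least 157 times as high as ENO2 in every heart, and the ratio did not part the groups (exact permutation test, p = 0.9).

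**Figure D3:**
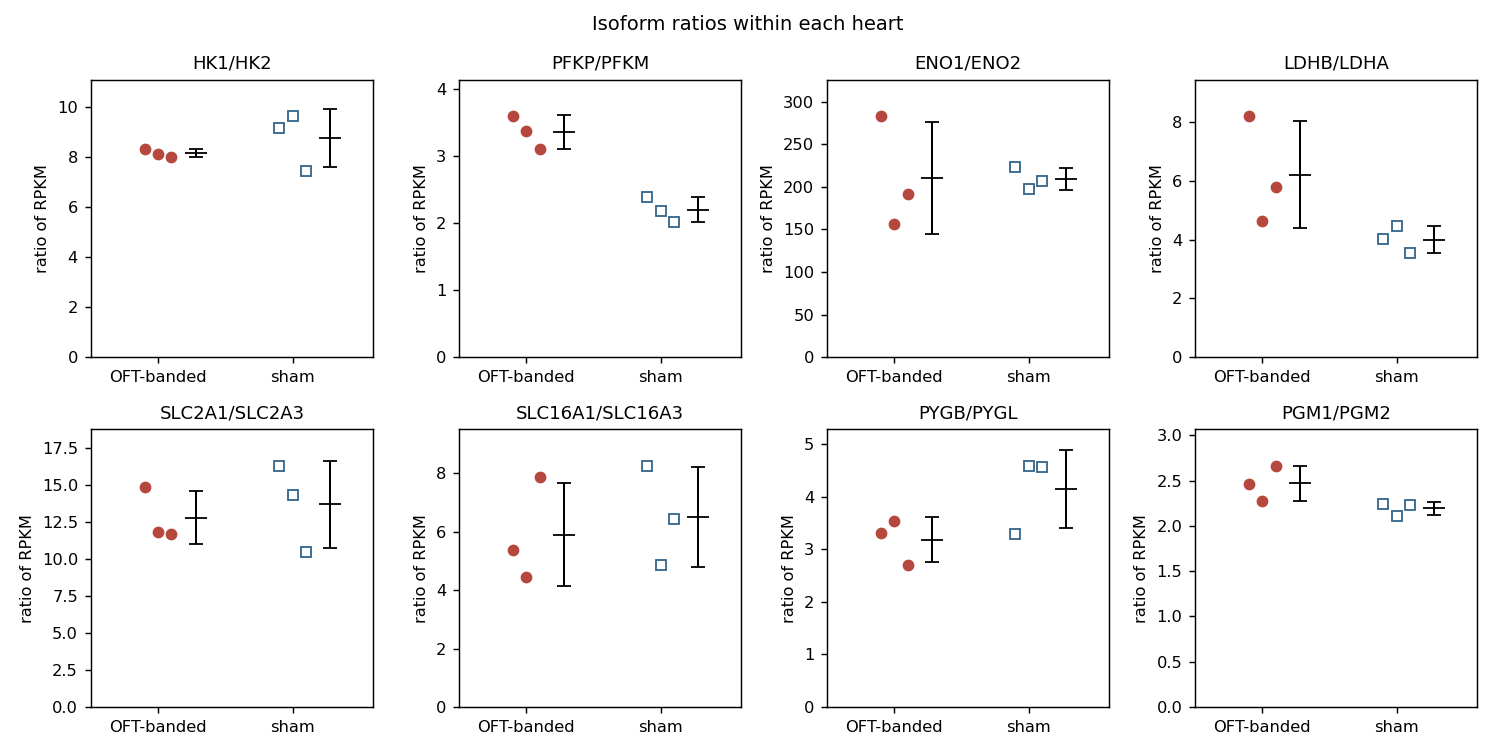
Ratio of RPKM between 2 isoform genes within each heart for 8 pairs of members, on axes from 0, with 1 point per heart (OFT-banded left, sham right) and the mean ± SD (n = 3). The groups do not overlap for PFKP/PFKM, LDHB/LDHA and PGM1/PGM2, each with an exact permutation p of 0.1, the smallest possible.

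On the RPKM as deposited, without further scaling, both listed glycogen phosphorylases were lower in every OFT-banded heart than in any sham heart. These are transcript levels. For glycogen itself, the paper reports no difference in staining between OFT-banded and sham hearts at a later stage. PYGB, the brain-type gene, was at 128, 139 and 93.3 RPKM in OFT-banded hearts 6, 11 and 17, against 154, 190 and 207 RPKM in sham hearts 38, 48 and 42. The ratio of the means was 0.655, and the log2 fold change was -0.62 (95% interval -1.02 to -0.21, adjusted p = 0.543 and unadjusted p = 0.00909 from limma). It was -0.45 without heart 17, the lowest heart, and -0.57 with the erythroid covariate.

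PYGL, the liver-type gene, was at 38.5, 39.4 and 34.5 RPKM in OFT-banded hearts, against 46.7, 41.3 and 45.3 RPKM in sham hearts. The log2 fold change of PYGL was -0.24 (95% interval -0.46 to -0.01, adjusted p = 0.543 and unadjusted p = 0.0405 from limma), and heart 17 was again the lowest. With median-ratio scaling the p of PYGL from limma was 0.137. The sum of both phosphorylases was 166, 179 and 128 RPKM in OFT-banded hearts, against 200.3, 231 and 252 RPKM in sham hearts. PYGB was 3.32, 3.53 and 2.70 times as high as PYGL in OFT-banded hearts, against 3.29, 4.60 and 4.57 times in sham hearts, with overlap through heart 38 (difference in mean log2 ratio -0.37, exact permutation test, p = 0.3, and 0.54 adjusted over 9 pairs).

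Phosphorylase kinase activates phosphorylase. PHKG1, its catalytic gamma subunit, was at 114, 93.9 and 97.1 RPKM in OFT-banded hearts, against 115, 110 and 113 RPKM in sham hearts, with heart 6 within the sham range (log2 fold change -0.15, adjusted p = 0.588 from limma). PHKB, a regulatory subunit, was at 10.2, 13.1 and 15.0 RPKM in OFT-banded hearts, against 10.7, 16.2 and 14.6 RPKM in sham hearts. EPM2A, the glycogen phosphatase laforin, was at 16.9, 16.8 and 19.6 RPKM in OFT-banded hearts, against 20.7, 17.03 and 14.9 RPKM in sham hearts. Neither of the last 2 genes parted the groups.

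On the side of synthesis, UGP2, which makes UDP-glucose, was at 56.9, 58.2 and 58.8 RPKM in OFT-banded hearts, against 61.8, 66.9 and 67.6 RPKM in sham hearts. The groups did not overlap, at a small difference (log2 fold change -0.17, 95% interval -0.35 to 0.01, adjusted p = 0.543 from limma) that stood at -0.10 with the erythroid covariate. GYG1, glycogenin, the protein primer of glycogen, was at 86.2, 94.2 and 94.4 RPKM in OFT-banded hearts, against 84.1, 90.6 and 86.6 RPKM in sham hearts, with overlap.

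PGM1, phosphoglucomutase, which links glycogen to glycolysis, was the other gene with all OFT-banded hearts higher. It was at 59.5, 59.7 and 70.6 RPKM in OFT-banded hearts 6, 11 and 17, against 55.9, 58.7 and 55.7 RPKM in sham hearts 38, 48 and 42. Heart 17 stood highest, and hearts 6 and 11 lay just above sham heart 48. The log2 fold change was 0.15 (95% interval -0.07 to 0.37, adjusted p = 0.592 from limma) and 0.07 without heart 17. PGM2, which in humans acts mainly on pentose phosphates, was at 24.2, 26.2 and 26.5 RPKM in OFT-banded hearts, against 24.9, 27.8 and 25.0 RPKM in sham hearts. The PGM1 to PGM2 ratio was 2.46, 2.28 and 2.67 in OFT-banded hearts, against 2.24, 2.11 and 2.23 in sham hearts (difference in mean log2 ratio 0.17, exact permutation test, p = 0.1, the smallest possible, and 0.11 without heart 17).

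**Figure D4:**
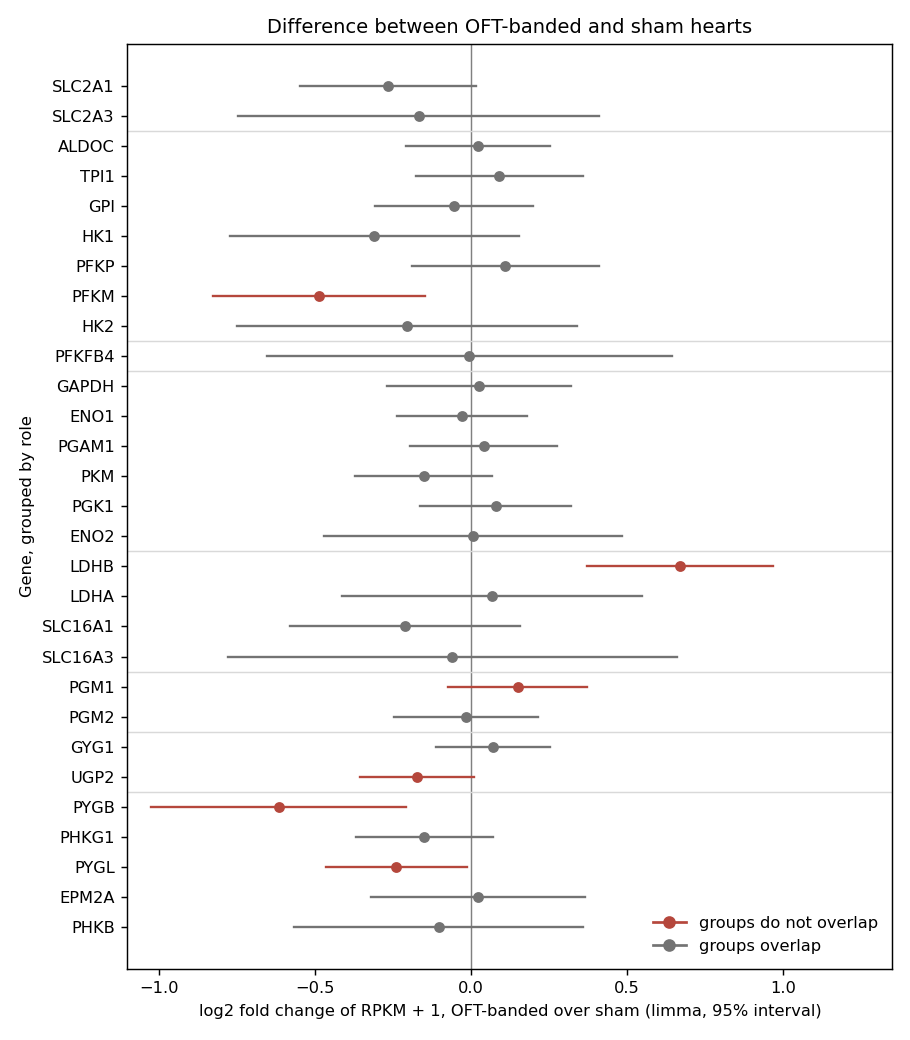
Log2 fold change on log2(RPKM + 1), OFT-banded over sham, with its 95% interval from limma for the 29 tested genes, grouped by role. Coloured genes are the 6 whose groups do not overlap, from PYGB at -0.62 to LDHB at 0.67, and the adjusted p of each gene is at least 0.543.

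The 6 hearts differed as individuals within this set. OFT-banded heart 11 had the highest value of all hearts in 7 of the 29 genes (24.1%), beside 12.1% of all tested transcripts. These were LDHA, PGK1, GPI, ALDOC, PFKP, ENO2 and SLC16A3. Sham heart 42 was highest in 8 genes (27.6%, beside 36.0% of all transcripts), among them SLC2A1, SLC2A3, HK2, SLC16A1 and PYGB. OFT-banded heart 6 was lowest in 13 genes (44.8%, beside 42.2% of all transcripts), a share close to the background.

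**Figure D5:**
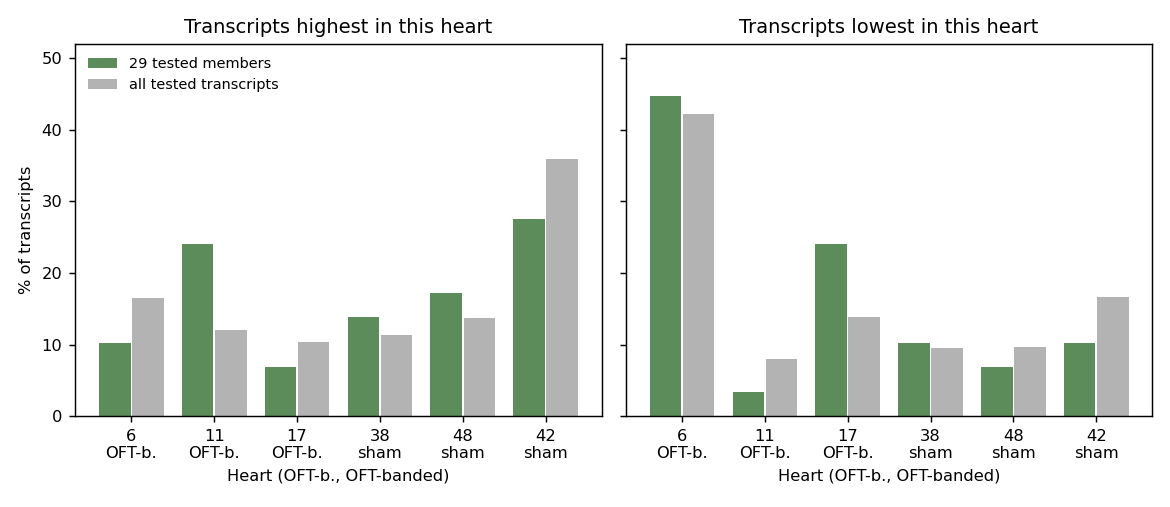
Share in percent of the 29 tested members (green) and of all 4726 tested transcripts (grey) that were highest (left) or lowest (right) in each of the 6 hearts. Heart 11 was highest in 24.1% of members against 12.1% of all transcripts, while heart 6 was lowest in 44.8% against 42.2%.

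Other genes of glucose metabolism were read from a list of 95 symbols, of which 43 had a row and 39 were tested. None passed at an adjusted p under 0.05, and 1 (2.56%) had an unadjusted p under 0.05 from limma, beside 8.57% of all transcripts. Without sham heart 38 there were 8 (20.5%), beside 13.8% of all transcripts. By value 9 of them had a higher and 30 a lower mean after banding, and with median-ratio scaling 17 and 22. In 6 of them (15.4%) the groups did not overlap, close to the 16.3% of all transcripts. The 10 tested pyruvate entry genes gave 2 of these, MPC2 and PDHA1, both higher. By value 4 of these 10 genes were higher and 6 lower, with a median log2 fold change of -0.076. The 4 remaining genes without overlap, HIF1A among them, were lower.

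HIF1A, the oxygen-sensitive activator of glycolytic genes, was at 33.3, 38.2 and 37.5 RPKM in OFT-banded hearts, against 39.4, 43.3 and 47.4 RPKM in sham hearts. All OFT-banded hearts were lower, by a log2 fold change of -0.25 (adjusted p = 0.543 and unadjusted p = 0.0517 from limma). MPC2, a subunit of the mitochondrial pyruvate carrier, was at 549, 456 and 453 RPKM in OFT-banded hearts, against 431, 434 and 364 RPKM in sham hearts, without overlap (log2 fold change 0.25, adjusted p = 0.543 from limma). GOT2, mitochondrial aspartate aminotransferase of the redox shuttle, was at 409, 464 and 499 RPKM in OFT-banded hearts, against 480, 556 and 590 RPKM in sham hearts, with overlap (log2 fold change -0.25, adjusted p = 0.543 from limma).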

How the data were processed

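RNA of 3 OFT-banded and 3 sham hearts was sequenced with strand-specific paired-end libraries. The authors removed adaptors with scythe and low-quality ends with sickle. TopHat placed the reads on galGal4, HTSeq made counts, and the authors tested with DESeq. Versions are not given in the sources used here. The deposited values are RPKM made by the authors (FPKM in their methods). Columns name the group but carry heart numbers that the labels do not, so hearts were assigned by group.

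RPKM was taken as log2(RPKM + 1), rows averaging under 1 RPKM were dropped, and groups were compared with limma 3.58.1 (R 4.3.3, intensity trend, Benjamini-Hochberg at 0.05). Fold changes on this scale understate low genes. Isoform ratios used RPKM without a pseudocount and exact permutation tests (Python 3.11.15, numpy 2.4.6, pandas 2.3.3). All hearts were prepared side by side, and p-values measure the spread between 3 hearts per group. Depth came from microRNA rows below 3 RPKM, where at least 98.1% of values were whole (tolerance 0.1 read), with the step halved where nearly all values were even (heart 42). RPKM is no count, so no count test was run. The fit was tested on simulated data with independent noise and changes larger than that of any member. That test cannot tell how well changes of the size reported here are found.

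Named were all members, with values by heart for those without overlap, those of isoform families and the 4 most abundant, and the 4 other genes with the smallest p; values of further members and the name of PDHA1 were added after they were seen. A withheld item is not reported here. Members and lists were chosen with earlier results of these data known. Alternatives were the pseudocount 0.1, no filter, a minimum of 5 RPKM, 3 other scalings, no trend, robust moderation, an erythroid covariate and each heart left out. Symbols were checked by accession for 29 of 31 rows, and the rows of PFKP and PFKFB4 found no match. Family sums, shares and ranks are descriptions.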

Additional observations from a re-analysis of the deposited data

How the results depend on the processing

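No paired analysis was possible because the paper describes no pairs of hearts, and the columns carry none of the replicate numbers of the labels. Each heart came from its own embryo, so equal numbers in the labels would not pair an OFT-banded with a sham heart. No alternative gave a transcript with an adjusted p under 0.05 from limma, among 405 with an unadjusted p under 0.05; leaving out 1 heart at a time moved that count between 196 (without sham heart 42) and 651 (without sham heart 38). Of the 29 tested members, 4 (13.8%) had an unadjusted p under 0.05 from limma, beside 8.57% of all transcripts. Without 1 heart this was 3 to 4 (10.3% to 13.8%), beside 4.15% to 13.8% of all transcripts. With globin rows left out it was 6 (20.7%), beside 8.87%. With the erythroid covariate it was 2 (6.9%), LDHB and PYGL, beside 5.88%. The count of members without overlap was 6, and 6 to 10 without 1 heart, beside 16.3% of all transcripts with 6 hearts and 20.1% to 41.3% without 1 heart. The 10 (34.5%) came without OFT-banded heart 11, where 25.6% of all transcripts did not overlap. Of the other glucose and glycogen genes 1 (2.56%) had an unadjusted p under 0.05 from limma, beside 8.57% of all transcripts. With a minimum of 5 RPKM there were 2 (5.41%), beside 9.51%. Median-ratio scaling gave 2 (5.13%), beside 8.61%, and robust moderation 2 (5.13%), beside 8.55%. Without 1 heart the count was 0 to 8. The 8 (20.5%) came without sham heart 38, beside 13.8% of all transcripts. The 0 came without OFT-banded heart 6 or 11, beside 6.62% and 6.47%.

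LDHB had an unadjusted p under 0.05 from limma in all 15 alternatives. LDHB, PFKM, PYGB, PYGL, UGP2, PGM1, SLC2A1 and PKM kept their direction in all 15 alternatives, LDHB within 0.55 to 0.80 and PYGB within -0.74 to -0.45 on the log2 scale. The changes of filter, the fit without trend and robust moderation cannot alter a fold change. Only the other alternatives could have turned a direction. The log2 fold change of GAPDH turned to -0.0087 with each heart rescaled to the same sum, to -0.045 with globin rows left out and to -0.064 with the erythroid covariate, and lay between -0.025 and 0.073 without 1 heart. ENO1 turned to 0.036 with median-ratio scaling and lay between -0.046 and 0.0013 without 1 heart. HK1 turned to 0.051 with the erythroid covariate. LDHA turned to -0.0028 with globin rows left out and lay between -0.17 and 0.21 without 1 heart. Of the isoform ratios, PFKP/PFKM, LDHB/LDHA, PGM1/PGM2, PYGB/PYGL and HK1/HK2 kept their direction in all 8 alternatives. These were RPKM + 1, the sum over rows of a symbol and each heart left out. The sum over rows could not change these ratios, as each of their genes has a single row. Without 1 heart the difference in log2 ratio lay between -0.27 and 0.16 for ENO1/ENO2, between -0.38 and 0.038 for SLC16A1/SLC16A3 and between -0.26 and 0.054 for SLC2A1/SLC2A3. The causes were not tested. A design of 3 hearts against 3 cannot give an exact p below 0.1, which limits every ratio.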
